A study of Danio rerio with 25 samples.

Results

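MicroRNA hairpins were compared between skin of male zebrafish (Danio rerio) at 42 months, an old age for laboratory zebrafish, and skin at 24 months. All 346 hairpins of the count table were members, each read in 5 libraries at 42 months and 5 at 24 months, 10 of the 25 libraries of the series. The fish of 42 months carried the strain label AB JxTü Tg(wt1a:GFP), a GFP reporter named for wt1a. The fish of 24 months carried the label AB JxTü, with no transgene. Age and strain label therefore differ together in every value below and cannot be told apart. All libraries were made from total RNA of skin, and the labels name no treatment. The other libraries, 5 each of 6, 12 and 36 months, shared the estimate of the spread in the tests. The series title and its groups pose the question, how skin microRNAs differ with age.

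MicroRNAs are short RNAs cut from hairpin precursors. Loaded into Argonaute proteins, they pair with messenger RNAs and lower their translation and stability. Many are made mainly in a single kind of cell, so their levels in a whole tissue follow both the mix of cells and the state of the cells. In skin, miR-203 and miR-205 belong to keratinocytes, miR-142 and miR-223 to leukocytes, miR-143 and miR-199 to mesenchymal cells and miR-204 to pigment cells. MiR-21, miR-146 and miR-155 are induced with inflammation. In a bulk sample of skin, fewer cells of a type and less RNA per cell cannot be told apart.

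The labelled tissue was checked against these markers. MiR-205 ranged from 34405 to 169036 CPM (read counts scaled to a common library total) at 42 months and from 32127 to 92426 CPM at 24 months. MiR-203b ranged from 17364 to 27501 CPM at 42 months and from 13416 to 24424 CPM at 24 months. Both are among the defining microRNAs of epidermis, and both were abundant in all 10 libraries.

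A total of 4 libraries stood apart in markers of other cells or in depth, and calls that rest on them are also given without them. The 24 months replicate 3 library held 42945 CPM over the liver, gut and pancreas list, against 4843 to 9147 CPM in the other 24-month libraries and 6127 to 14930 CPM in the 42-month libraries. The 42 months replicate 5 library held 3434 CPM over the neural list, against 1910 to 2101 CPM in the other 42-month libraries and 1715 to 2251 CPM in the 24-month libraries. The 42 months replicate 1 library held 275106 CPM over the inflammation list, and 42 months replicate 2 held 208377 CPM over the keratinocyte list. The plot of summed lists by library shows these. Depth was 683884 to 2838826 counts per library at 42 months and 1941763 to 4263353 at 24 months. The means were 1878604 ± 915895 at 42 months and 3255522 ± 968100.3 at 24 months (SD, n = 5 each; exact two-sided permutation p = 0.0476, adjusted over 3 library measures p = 0.0714). The smallest p that 5 against 5 libraries allow is 0.00794. The lowest total belonged to 42 months replicate 2.

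**Figure D1:**
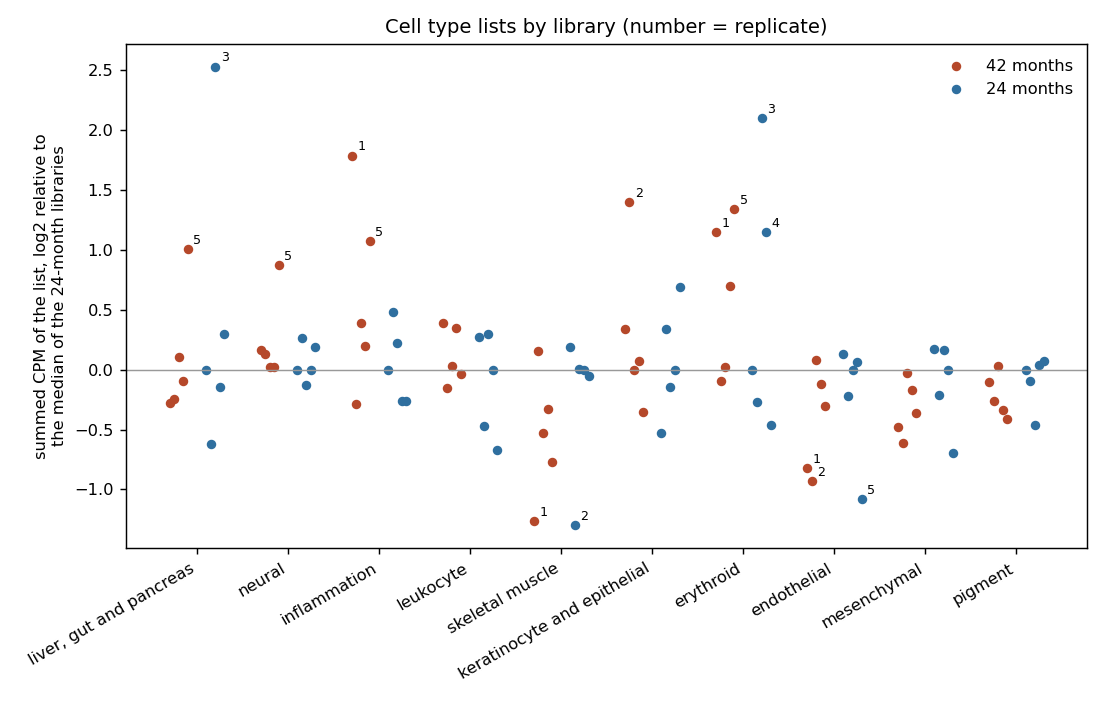
Summed CPM of 10 cell type lists in each library, as log2 relative to the median of the 24-month libraries (y axis), for 42 months (red, left of each pair) and 24 months (blue, right); numbers are replicates that lie more than 0.8 from that median. In the liver, gut and pancreas list 24 months replicate 3 lies far above the rest, and in the neural list 42 months replicate 5 does.

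At an adjusted p under 0.05, edgeR's quasi-likelihood test called 15 of the 258 hairpins with enough counts to be tested, or 5.81%. Of these 9 were higher at 42 months (3.49% of those tested) and 6 were lower (2.33%). They were miR-222b, miR-731, miR-462, both copies of miR-375, miR-146b, miR-155, miR-223 and miR-16c on the higher side, and miR-216a, miR-216b, miR-217, miR-459, miR-206-2 and miR-30a on the lower. At an unadjusted p under 0.05 there were 59. With the copies of each name summed, 20 of 190 names were called (10.5%), 11 higher and 9 lower. These held all 14 names called by hairpin, with let-7c, miR-21 and miR-457a added on the higher side and miR-122, miR-489 and miR-454b on the lower. Of the added names only let-7c and miR-21 have copies to sum. The others have a single hairpin each, which passed in the fit over 190 names and not in that over 258 hairpins. The median log2 change over all tested hairpins was 0.0405, the median size of a change was 0.227 log2 and the median standard error was 0.213. A change of over 2-fold was fitted for 31 hairpins, 20 higher and 11 lower.

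The number of hairpins called depended on which libraries were in the fit. With 1 library left out it was between 9, without 42 months replicate 5 or 24 months replicate 4, and 34, without 42 months replicate 4. Without 42 months replicates 1 and 5 and 24 months replicate 3, taken out together, miR-222b alone was called, by hairpin (log2 change 1.03, adjusted p = 0.00615) and with copies summed. With only the 10 libraries in the fit, miR-222b alone was again called, by hairpin and with copies summed. A test against a fold change of 1.5 called miR-222b alone by hairpin. With copies summed that test called miR-222b, miR-146b, miR-216a and miR-216b. Limma-voom called 5 of the 9 higher hairpins and none of the 6 lower ones (log2 changes between -1.14 and -2.003, adjusted p between 0.0721 and 0.528), which at a mean of at least 100 CPM were not tested. By limma-voom 44 hairpins had an unadjusted p under 0.05. The balance of higher and lower calls moved with the scaling. It was 9 to 6 with TMM, 8 to 10 with DESeq2's size factors, 7 to 10 with library totals and 3 to 13 with upper-quartile scaling, which shifted the median change of all hairpins by -0.20 log2.

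**Figure D2:**
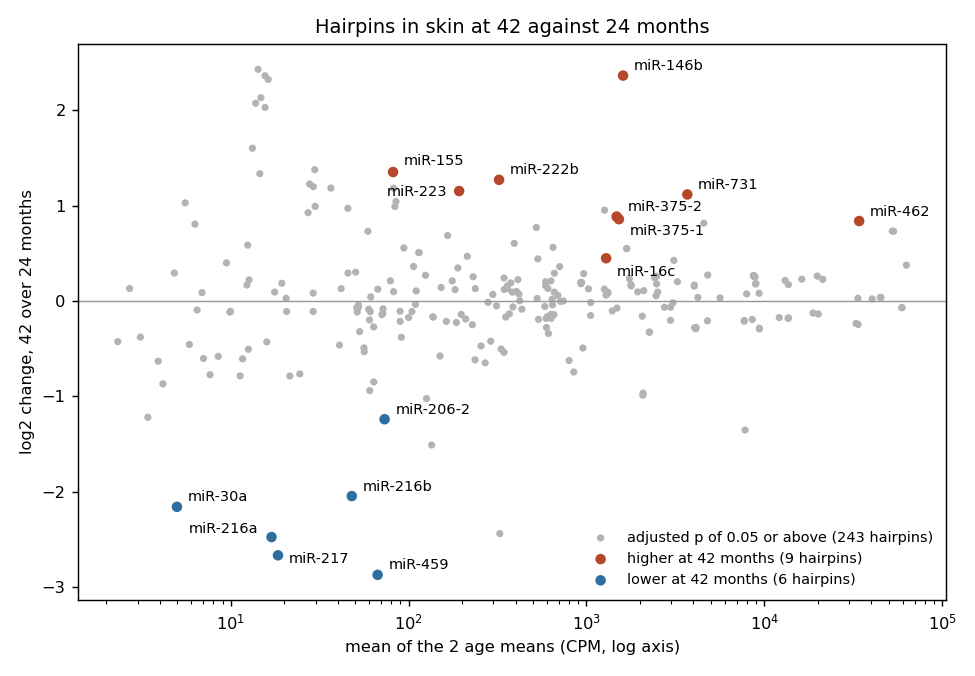
Log2 change of each tested hairpin, 42 over 24 months (y axis), against the mean of its mean CPM at the 2 ages (x axis, log scale); red points were called higher and blue points lower at 42 months, grey points were not called. The 9 hairpins called higher lie between 0.45 and 2.36 log2 and the 6 called lower between -1.24 and -2.87, most of these at under 100 CPM.

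MiR-222b had the smallest p of all hairpins. It is a fish relative of miR-221 and miR-222a, which are known from endothelium and from dividing cells. It stood at 584, 247, 462, 448 and 540.4 CPM in the 42-month libraries, against 197, 179.8, 245, 181 and 146 CPM in the 24-month libraries. Each 42-month library was above each 24-month library, although 42 months replicate 2 exceeded 24 months replicate 3 by little. The means were 456 ± 129.8 CPM at 42 months and 189.6 ± 35.9 CPM at 24 months (SD, n = 5 each), a log2 change of 1.27 ± 0.19 (SE, adjusted p = 2.99e-04). It was called under all 23 settings tried. Its relatives did not pass the test. MiR-222a averaged 5702 ± 643 CPM at 42 months and 5579.9 ± 1439.8 CPM at 24 months, and miR-221 averaged 2514 ± 499 CPM at 42 months and 2419.9 ± 313 CPM at 24 months (adjusted p = 0.894 and 0.828). Of the 3 tested members of that list 1 thus rose, miR-222b, where 3.49% of all tested hairpins did.

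MiR-462 and miR-731 rose together at 42 months. They are neighbours in the genome and, in fish, are induced by interferon and by viral infection. MiR-462, the more abundant, stood at 59143, 53156, 24899, 39190.3 and 42724 CPM at 42 months, against 18367, 30148, 20226, 17493 and 36334 CPM at 24 months. The ranges overlapped through 42 months replicate 3 and 24 months replicates 2 and 5. It rose by a log2 change of 0.84 ± 0.24 (edgeR adjusted p = 0.0421). MiR-731 stood at 7802, 5114, 2990.5, 4202 and 5177 CPM at 42 months, against 1879, 2230.1, 2034, 2014 and 3503 CPM at 24 months. Here only 24 months replicate 5 reached into the 42-month range. It rose by 1.12 ± 0.23 log2 (adjusted p = 0.00723). MiR-731 kept its call when any 1 library was left out, and lost it without both 42 months replicates 1 and 2 (0.72, adjusted p = 0.0824). MiR-462 lost its call without any of 42 months replicates 1, 2 and 5 or 24 months replicates 1, 3 and 4 (log2 change 0.63 to 0.79, adjusted p = 0.0597 to 0.147). It was called in 8 of 23 settings, and also lost its call with DESeq2's size factors, upper-quartile scaling, no filter, a minimum mean of 100 CPM and limma-voom (log2 change 0.60 to 0.84, adjusted p = 0.0584 to 0.163).

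The inflammation list holds miR-21, miR-146a, miR-146b and miR-155, 5 hairpins in all. Of these 2 rose, where 3.49% of all tested hairpins did, none fell and 3 did not pass, with a median log2 change of 0.82 beside 0.0405 over all hairpins. MiR-146b, which in mammals dampens signalling below Toll-like receptors, stood at 9406, 549, 1019.9, 809.6 and 1671 CPM at 42 months, against 336, 481, 919.8, 389.7 and 491 CPM at 24 months. Replicate 1 of 42 months was far above the rest, replicates 3 and 5 were above all 24-month libraries, and replicates 2 and 4 lay within their range. The log2 change of 2.36 ± 0.56 (adjusted p = 0.0122) became 0.92 without 42 months replicate 1 (adjusted p = 0.0956) and 1.62 with limma-voom (adjusted p = 0.101).

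MiR-155, which in mammals promotes activation of lymphocytes and macrophages, stood at 258, 38.4, 42.4, 76.9 and 171 CPM at 42 months, against 40.4, 58.3, 51.4, 41.5 and 40.2 CPM at 24 months. Replicates 1, 4 and 5 of 42 months were above all 24-month libraries, and replicates 2 and 3 were not. The log2 change was 1.35 ± 0.37 (adjusted p = 0.0274). It was 0.79 without 42 months replicate 1 (adjusted p = 0.152), and the call was also lost without 42 months replicate 5 or any of 24 months replicates 1, 4 and 5 (adjusted p = 0.0549 to 0.0835), and with upper-quartile scaling (adjusted p = 0.0536) and limma-voom (adjusted p = 0.138).

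MiR-21, the most abundant member and known from wound repair and fibrosis, passed with its 2 copies summed and not by hairpin. It stood at 254388, 61837, 98493, 86478 and 159562 CPM at 42 months, against 76622, 108542, 85047, 63745 and 63969 CPM at 24 months. The highest 42-month libraries were again replicates 1 and 5. The log2 change was 0.78 ± 0.25 (adjusted p = 0.0477), and 0.42 without 42 months replicate 1 (adjusted p = 0.247). That call was also lost without 42 months replicate 5 or any of 24 months replicates 1, 3, 4 and 5 (adjusted p = 0.0571 to 0.136), and under each other scaling. By hairpin its copies were called with DESeq2 and without any of 42 months replicates 2 and 4 or 24 months replicate 2. MiR-146a averaged 5837 ± 3193 CPM at 42 months and 3318 ± 2062 CPM at 24 months, with 6981 CPM in 24 months replicate 3. It did not pass over all libraries (copies summed, adjusted p = 0.0768). By hairpin it was called higher without 24 months replicate 3 (adjusted p = 0.0149) and in no other setting. With copies summed it was called without that library, and without 42 months replicate 2 or 4. All 5 hairpins of the list had positive fitted changes under each scaling and with any 1 library left out, and 3 of 5 did without 42 months replicates 1 and 5 and 24 months replicate 3. Over all 258 tested hairpins 139 fitted changes were positive with TMM. The copies of miR-21 may share reads, so the signs within the list are not independent.

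Of the 4 leukocyte hairpins only miR-223 rose, where 3.49% of all tested hairpins did. MiR-223 is made in neutrophils and other myeloid cells. It stood at 615, 216.8, 131, 94.6 and 269.6 CPM at 42 months, against 92.5, 99.4, 148, 125 and 132.9 CPM at 24 months. Replicates 1, 2 and 5 of 42 months were above all 24-month libraries. Its log2 change was 1.15 ± 0.34 (adjusted p = 0.0439), and 0.52 without 42 months replicate 1 (adjusted p = 0.292). It was called without 42 months replicate 3 or 4 or 24 months replicate 3, and not without any of the other 7 libraries, nor with library totals, upper-quartile scaling, no filter, a minimum mean of 100 CPM or limma-voom (adjusted p = 0.0505 to 0.161). MiR-142a, a marker of all blood lineages, averaged 2004 ± 414 CPM at 42 months and 1877 ± 639 CPM at 24 months, and miR-150 of mature lymphocytes averaged 419 ± 62.8 CPM at 42 months and 390.4 ± 69.4 CPM at 24 months. Neither passed the test. The summed list ranged from 2798 to 4089 CPM at 42 months and from 1963 to 3827 CPM at 24 months.

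**Figure D3:**
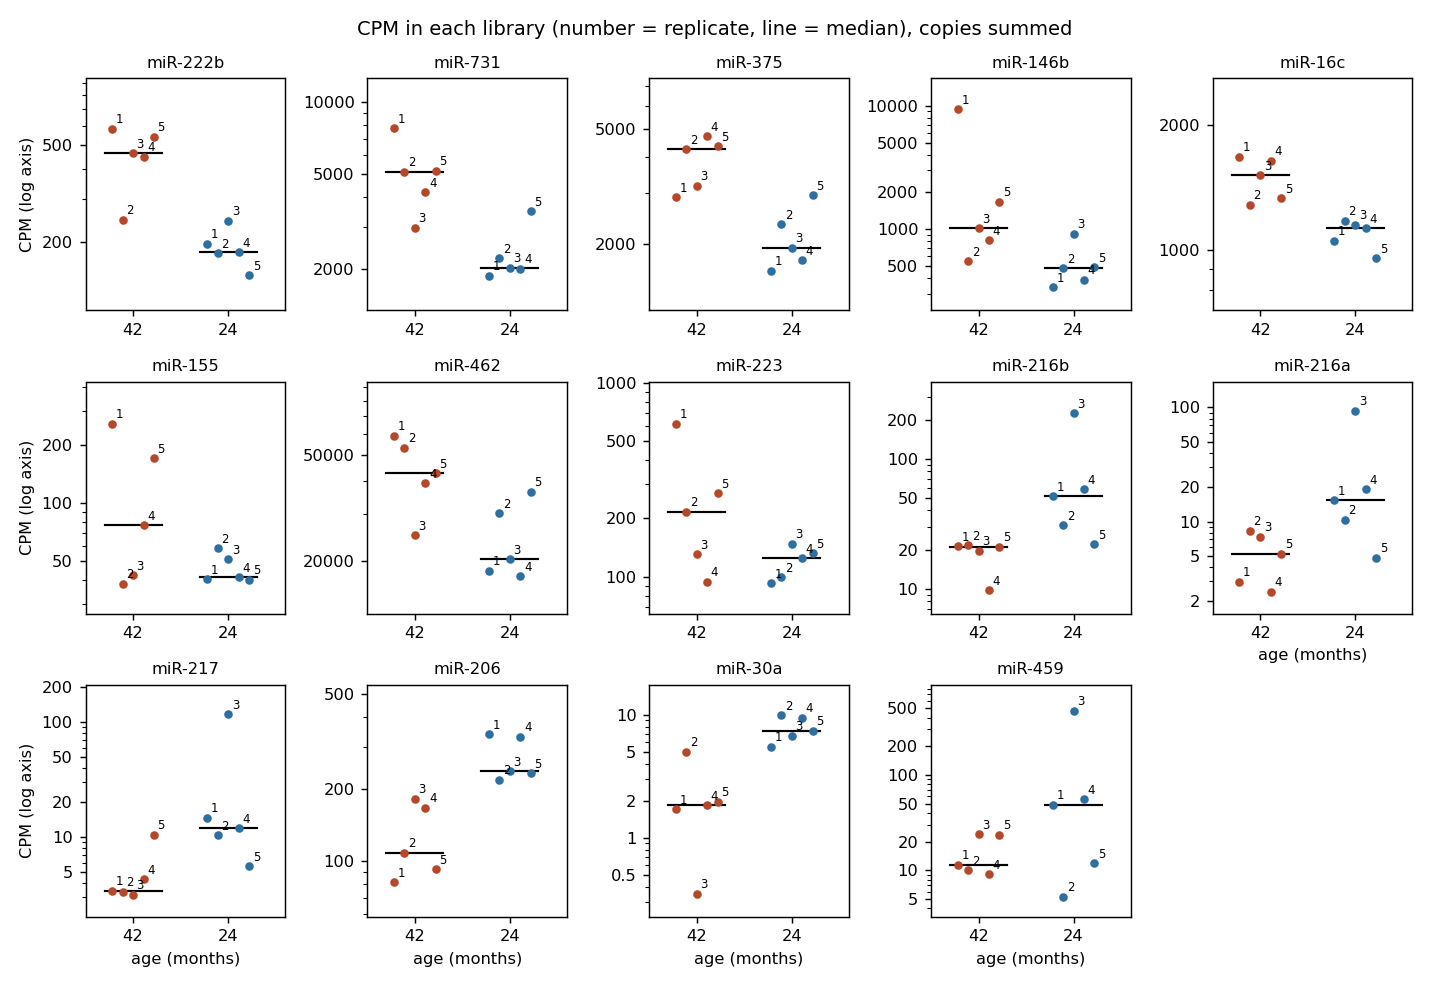
CPM (log axis) of the 14 names called by hairpin, copies summed, in each library of 42 months (red, left) and 24 months (blue, right); numbers are replicates and lines are medians. MiR-222b, miR-16c, miR-216b, miR-206 and miR-30a separate the 2 ages completely. MiR-222b (247 against 245 CPM) and miR-216b (21.96 against 21.7 CPM) do so by very little. MiR-30a rests on few reads and entered the test through libraries of other ages, which limits its separation. MiR-146b, miR-216a, miR-216b, miR-217 and miR-459 each have 1 library far above the rest.

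MiR-375, known from endocrine pancreas and, in mammals, from Merkel cells of the epidermis, was higher at 42 months. With its copies summed it stood at 2908, 4260.3, 3181, 4715 and 4350.4 CPM at 42 months, against 1620.3, 2339, 1943, 1763 and 2947 CPM at 24 months. Only 24 months replicate 5 reached the 42-month range. The copies had almost the same values and may share reads. Copy 2 had a log2 change of 0.89 ± 0.21 and copy 1 of 0.86 ± 0.20 (adjusted p = 0.0122 for both). Without 42 months replicate 5 or 24 months replicate 1 both copies lost their calls (adjusted p = 0.0614 and 0.0776 for copy 2). Both also did with upper-quartile scaling (adjusted p = 0.106). With copies summed miR-375 kept its call in each of these settings, and lost it without 24 months replicate 4.

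MiR-16c and miR-457a belong to the miR-15/miR-16 group, which in mammals restrains entry into the cell cycle. MiR-16c stood at 1678, 1286, 1513, 1641 and 1331 CPM at 42 months, against 1053, 1177, 1151, 1126 and 956 CPM at 24 months. The groups did not overlap and the replicates were close together. Its log2 change of 0.45 ± 0.11 was the smallest among the hairpins called (adjusted p = 0.0133). The call was lost without any of 42 months replicates 1, 3 and 5 or 24 months replicates 1 and 5 (0.33 to 0.39 log2, adjusted p = 0.0644 to 0.126). It was also lost with upper-quartile scaling (0.25, adjusted p = 0.137) and with library totals (0.34, adjusted p = 0.121). With copies summed it was called without each of these libraries but not under these scalings, with a log2 change of 0.49 over all libraries (adjusted p = 0.00409). MiR-457a, which has a single hairpin, passed in the fit with copies summed and not by hairpin (0.54 ± 0.16, adjusted p = 0.0384). It averaged 248 ± 51.7 CPM at 42 months and 179.8 ± 53.9 CPM at 24 months, with overlapping ranges, and lost its call without any of 42 months replicates 1 and 5 or 24 months replicates 1, 4 and 5, and under each other scaling. By hairpin it was called with DESeq2 and without 24 months replicate 3. Of the 9 hairpins of the group 1 rose, where 3.49% of all tested hairpins did, none fell and 8 did not pass (median log2 change 0.36).

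The let-7 family, which in vertebrates marks differentiated cells, and the miR-99/miR-100/miR-125 group, which often shares its transcripts, had no hairpin past the test. Let-7c passed with its copies summed. It stood at 6111, 3532, 3143, 2723 and 4498 CPM at 42 months, against 2666, 3441, 3055, 2738 and 1776 CPM at 24 months. The log2 change was 0.61 ± 0.18 (adjusted p = 0.0384), and 0.42 without 42 months replicate 1 (adjusted p = 0.168). The call was also lost without 42 months replicate 5 or any of 24 months replicates 1, 3, 4 and 5 (adjusted p = 0.0525 to 0.0906), and under each other scaling. DESeq2 called its copies by hairpin, as did edgeR when 42 months replicate 4 or 24 months replicate 2 was left out. The 18 let-7 hairpins had a median log2 change of 0.25 and all were positive with TMM, where 139 of all 258 were. Fewer were positive otherwise, 10 of 18 with upper-quartile scaling, 11 of 18 with library totals and 10 of 18 without 24 months replicate 5. Several are copies of a name that may share reads, so their signs are not independent.

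The 10 hairpins of the miR-99/miR-100/miR-125 group had a median of 0.23 and were all positive, where 139 of all 258 tested hairpins were. Without both 42 months replicates 1 and 2 the 10 hairpins of the group were all negative. Here too copies may share reads, so the signs are not independent. MiR-125c stood at 2672, 3009.7, 986, 937 and 735 CPM at 42 months, against 1004, 762, 661, 778 and 1102 CPM at 24 months (log2 change 0.95 by hairpin, adjusted p = 0.0691). Replicates 1 and 2 of 42 months were above all other libraries, and the other 3 lay within the 24-month range. MiR-99 was also highest in those libraries, with 1444 and 1707 CPM, against 650.2 to 906 CPM in the other 42-month libraries and 693 to 857 CPM at 24 months.

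On the lower side, the neighbours miR-216a, miR-216b and miR-217 fell together. All of them are known from exocrine pancreas, and all were low in skin. MiR-216b stood at 21.2, 21.7, 19.6, 9.77 and 21.0 CPM at 42 months, against 51.4, 30.9, 224, 58.1 and 21.96 CPM at 24 months. The groups did not overlap, although 24 months replicate 5 was just above the 42-month range. The log2 change was -2.05 ± 0.46 (adjusted p = 0.0122), and -1.12 without 24 months replicate 3 (adjusted p = 0.0320).

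MiR-216a stood at 2.97, 8.34, 7.35, 2.44 and 5.25 CPM at 42 months, against 15.5, 10.4, 93.5, 19.1 and 4.84 CPM at 24 months, a log2 change of -2.48 ± 0.57 (adjusted p = 0.0122). Without 24 months replicate 3 it was -1.29 (adjusted p = 0.0360). MiR-217 stood at 3.40, 3.33, 3.15, 4.27 and 10.5 CPM at 42 months, against 14.7, 10.4, 117, 11.9 and 5.58 CPM at 24 months, a log2 change of -2.67 ± 0.66 (adjusted p = 0.0144). Without 24 months replicate 3 it was -1.10 and was not called (adjusted p = 0.101), nor was it without both 42 months replicates 1 and 2 (adjusted p = 0.0593). In both, 24 months replicate 5 was inside the 42-month range, and for miR-217 replicate 2 was as well. Few reads lie behind these values at 42 months. MiR-217 had 2 to 16 reads per library at 42 months and 15 to 242 at 24 months, and miR-216a had 4 to 21 at 42 months and 13 to 193 at 24 months. In both, several 42-month libraries had fewer than 10 reads, the filter's minimum at the median library total. Entry into the test rested partly on other ages.

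MiR-459, known from the intestine of zebrafish, stood at 11.5, 10.005, 24.2, 9.16 and 23.6 CPM at 42 months, against 48.9, 5.32, 469.6, 56.1 and 11.9 CPM at 24 months. The lowest of all 10 libraries was 24 months replicate 2 and the highest 24 months replicate 3. The log2 change of -2.87 ± 0.84 (adjusted p = 0.0435) became -0.92 without 24 months replicate 3 (adjusted p = 0.448). The call was also lost without any of 42 months replicates 1, 2, 4 and 5 or 24 months replicate 4 (adjusted p = 0.0532 to 0.0733). MiR-122, the main microRNA of hepatocytes, stood at 74.8, 40.02, 120.4, 35.4 and 232 CPM at 42 months, against 143.4, 137.9, 1826, 258 and 392 CPM at 24 months. It has a single hairpin and passed only in the fit with copies summed (-2.33 ± 0.74, adjusted p = 0.0477). Without 24 months replicate 3 its log2 change in that fit was -1.19 (adjusted p = 0.339). The call was also lost without any of 42 months replicates 1, 2, 3 and 4 or 24 months replicates 4 and 5 (adjusted p = 0.0571 to 0.120).

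The liver, gut and pancreas list had 8 tested hairpins of 9. Of these 3 fell, the pancreatic miR-216a, miR-216b and miR-217, and 2 rose, the copies of miR-375. Over all tested hairpins 2.33% fell and 3.49% rose. The 3 that fell are genome neighbours and the copies of miR-375 may share reads, so these calls are not independent. The median log2 change of the list was -1.78, and -0.69 without 24 months replicate 3. MiR-192, its most abundant member and known from gut, liver and kidney, stood at 3049, 1886, 4621, 2169 and 10192 CPM at 42 months, against 5506, 2278, 38083, 4536 and 5652 CPM at 24 months, and did not pass (adjusted p = 0.201). The part that RNA of digestive organs in 24 months replicate 3 had in these changes was not tested beyond leaving that library out. Without it and 42 months replicates 1 and 5, no hairpin of the list was called.

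MiR-206, a microRNA of skeletal muscle, fell. With copies summed it stood at 81.6, 108, 182, 167 and 92.5 CPM at 42 months, against 340.3, 219.6, 238, 332 and 233 CPM at 24 months. Every 42-month library was below every 24-month library, for each copy as well. Copy 2 had a log2 change of -1.24 ± 0.33 (adjusted p = 0.0236) and copy 1 of -1.02 ± 0.32, just short of the threshold (adjusted p = 0.0518). The call of copy 2 was lost without 24 months replicate 4 (adjusted p = 0.0546) and without both 42 months replicates 1 and 2 (adjusted p = 0.0827). With copies summed the log2 change was -1.07 ± 0.30 (adjusted p = 0.0287), and that call was lost without any of 42 months replicates 1, 2 and 5 or 24 months replicates 1, 4 and 5 (adjusted p = 0.0525 to 0.0857).

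Of the 8 skeletal muscle hairpins 1 fell, none rose and 7 did not pass, where 2.33% of all tested hairpins fell and 3.49% rose. All 8 fitted changes were negative under each scaling and with any library left out, with a median of -0.71. Over all 258 tested hairpins 119 fitted changes were negative with TMM. The 8 hairpins belong to 5 names, and copies of a name may share reads, so their signs are not independent. The more abundant miR-133a averaged 7448 ± 2777 CPM at 42 months and 9072 ± 2908 CPM at 24 months, and miR-1 averaged 86.1 ± 45.1 CPM at 42 months and 162 ± 76.3 CPM at 24 months. Neither passed (copies summed, adjusted p = 0.730 and 0.210). The summed list ranged from 4646 to 12469 CPM at 42 months and from 4540 to 12728 CPM at 24 months. The part of the amount of muscle in the fall of miR-206 was not tested.

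MiR-30a, a member of a widely expressed family, was lower at 42 months and rested on few reads. It had 4, 3, 1, 3 and 3 reads in the 42-month libraries, against 22, 39, 14, 38 and 20 reads in the 24-month libraries. In CPM these are 1.70, 5.00, 0.350, 1.83 and 1.97 at 42 months, and 5.49, 9.89, 6.78, 9.44 and 7.44 at 24 months. The groups did not overlap. Its log2 change was -2.16 ± 0.59 (adjusted p = 0.0274). All 42-month libraries had fewer than 10 reads, the filter's minimum at the median library total. MiR-30a entered the test through libraries of other ages. A hairpin that enters this way is prone to be found lower at 42 months, which limits both the call and the separation. The call was lost without 42 months replicate 3 or 24 months replicate 4 (adjusted p = 0.0536 and 0.0575). The other 4 hairpins of the miR-30 family were not called, where 2.33% of all tested hairpins fell.

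A further pair of names, each with a single hairpin, fell in the fit with copies summed. MiR-489, known in mouse from quiescent muscle stem cells, averaged 209.7 ± 52.5 CPM at 42 months and 329.9 ± 78.6 CPM at 24 months (log2 change -0.60 ± 0.19, adjusted p = 0.0477). MiR-454b, of the miR-130/miR-301/miR-454 family, averaged 794 ± 132.9 CPM at 42 months and 1118 ± 229 CPM at 24 months (-0.46 ± 0.15, adjusted p = 0.0498). The ranges overlapped in both, and every 42-month library was below the 24-month median. MiR-489 lost its call when any library but 42 months replicate 1 was left out (adjusted p = 0.0577 to 0.180) and miR-454b when any but 42 months replicate 3 or 24 months replicate 3 was (adjusted p = 0.0519 to 0.268). Of the 9 hairpins of the miR-130/miR-301/miR-454 family 8 had negative fitted changes, with a median of -0.18, where 119 of all 258 tested hairpins did. Among these are both copies of miR-130c, which may share reads.

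The neural list had a high median and no call. Of its 26 tested hairpins none passed, where 5.81% of all tested hairpins did, and the median log2 change was 0.98. Many of the 26 are copies of miR-9 and miR-124 that may share reads, so their changes are not independent. MiR-124, the microRNA of mature neurons, stood at 9.77, 23.3, 30.8, 22.6 and 658 CPM at 42 months, against 38.4, 33.98, 33.4, 30.3 and 23.1 CPM at 24 months (copies summed, log2 change 2.38 ± 0.78, adjusted p = 0.0506). Only 42 months replicate 5 was above the 24-month range. MiR-9, of neural progenitors and neurons, stood at 88.0, 193, 161, 220.4 and 998 CPM at 42 months, against 181, 187, 162, 140.3 and 154 CPM at 24 months. Without 42 months replicate 5 the median of the list was -0.12 and 5 of 26 changes were positive. Over all settings 0 to 9 neural hairpins were called higher, with 9 when 42 months replicates 1 and 2 were left out.

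No microRNA of the cell types that make up most of skin passed the test. None of the 10 keratinocyte and epithelial hairpins was called, with fitted log2 changes between -0.07 and 0.38. Nor was any of the 7 mesenchymal hairpins (-0.29 to -0.04), the 2 endothelial, the 2 pigment, the 2 erythroid or the 3 cartilage hairpins. Over all tested hairpins 5.81% were called, so lists this small can lack a call without differing from the rest. Of these lists only cartilage had a hairpin called in any other setting. MiR-455-1 (-0.42, adjusted p = 0.214) was called lower without 42 months replicate 1, and without both 42 months replicates 1 and 2. MiR-205 averaged 71139.6 ± 55722 CPM at 42 months and 54838 ± 23876 CPM at 24 months, with 169036 CPM in 42 months replicate 2. Its fitted log2 change of 0.38 had no stable sign, and was -0.327 to 0.552 with 1 library left out. MiR-203a averaged 2595 ± 121.96 CPM at 42 months and 2435 ± 633 CPM at 24 months. MiR-204 of pigment cells averaged 37131 ± 4732 CPM at 42 months and 40688 ± 5629 CPM at 24 months.

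No call was made either in the groups miR-17-92 (17 hairpins, median log2 change -0.09), miR-23/miR-24/miR-27 (16, 0.10), miR-181 (5, 0.13), miR-132/miR-212 (4, -0.12), miR-26 (4, -0.18), miR-29 (3, -0.18), miR-103/miR-107 (3, -0.06), miR-183 (3, 0.13), miR-101 (2, -0.41) and miR-148/miR-152 (2, -0.22). The same held for the 10 hairpins at Hox clusters (-0.15) and for hypoxia-induced miR-210 (-0.14). MiR-34a, a target of p53 in mammals, averaged 50.6 ± 56.4 CPM at 42 months and 22.6 ± 5.10 CPM at 24 months. The 42 months replicate 1 library held 149.6 CPM, and the difference did not pass (copies summed, adjusted p = 0.0629). By hairpin the log2 change of miR-34a was 1.18, and 0.169 to 1.37 with 1 library left out. That hairpin was called higher with DESeq2 and without 42 months replicate 4. Of the 27 tested hairpins with numbers of 700 and above, most of them found in fish, miR-731 alone was called (median 0.10). MiR-1388 did not pass (-0.75, adjusted p = 0.0691). It was called lower with upper-quartile scaling, library totals, a minimum mean of 100 CPM and DESeq2. It was also called lower without any of 42 months replicates 1 and 4 or 24 months replicates 2 and 5, and without both 42 months replicates 1 and 2. Over all tested hairpins 5.81% were called. None of the 59 hairpins of the embryonic miR-430 family had enough counts to be tested.

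**Figure D4:**
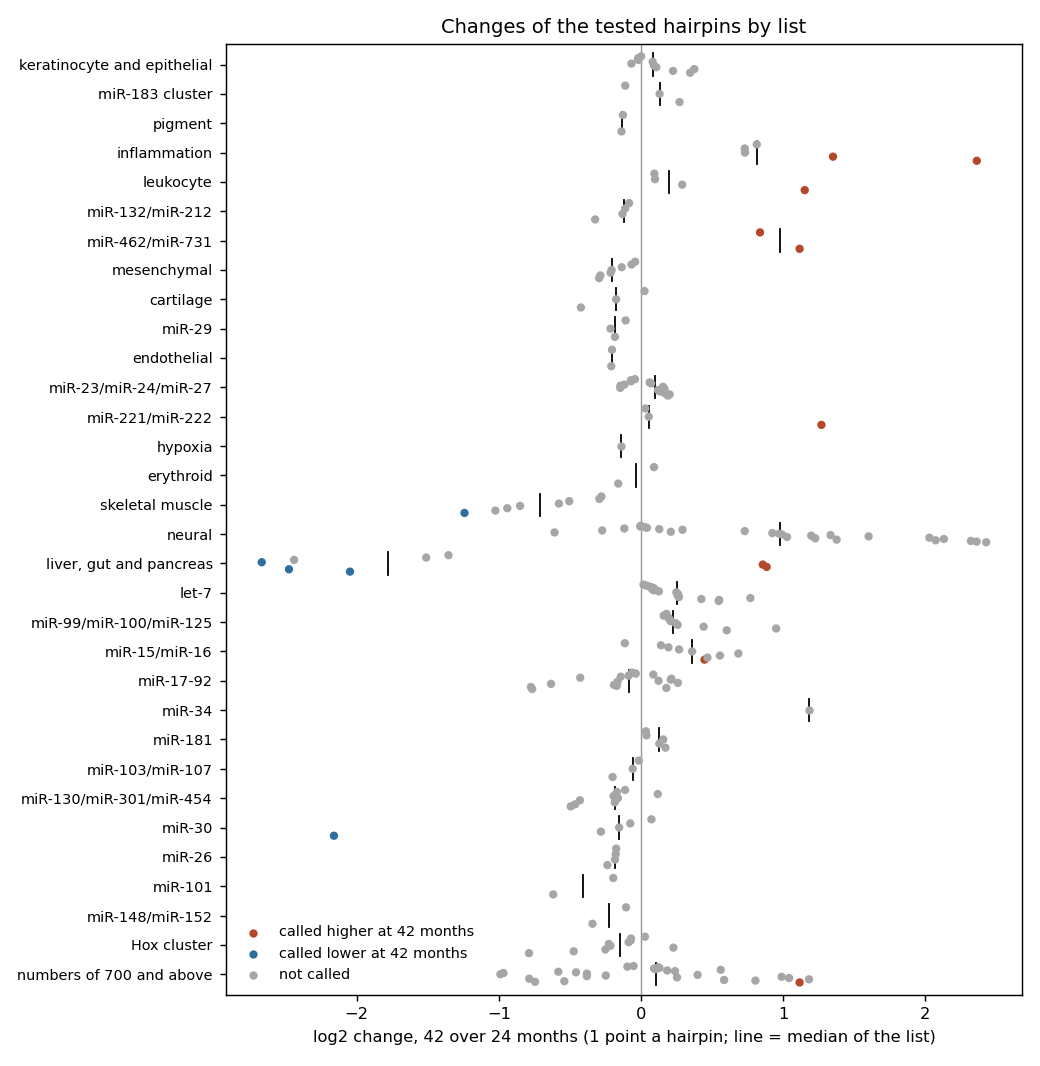
Log2 change of each tested hairpin, 42 over 24 months (x axis), by list (y axis); a point is a hairpin, the black line is the median of its list, and red and blue points were called higher and lower at 42 months. The epithelial, mesenchymal and endothelial lists lie close to 0, the inflammation list lies above it, and the muscle list and most of the digestive list lie below it.

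Most of the abundant names did not pass a test, which was also true of all tested names. The 10 with the highest mean CPM were miR-10b, miR-21, miR-181a, miR-205, let-7a, miR-22a, miR-26a, miR-204, miR-462 and miR-2184. Of these miR-21 and miR-462 passed with copies summed, where 20 of all 190 tested names did (10.5%). MiR-10b, which lies in Hox clusters, averaged 115852 ± 18417 CPM at 42 months and 121665 ± 25152 CPM at 24 months, and miR-181a averaged 91329 ± 18503 CPM at 42 months and 89025 ± 23368 CPM at 24 months. The 10 most abundant names of each library took 63.4% ± 3.73 of counts at 42 months and 61.7% ± 3.27 at 24 months (SD, n = 5 each, exact two-sided permutation p = 0.452). Hairpins with at least 10 counts numbered 237.8 ± 11.7 at 42 months and 255.2 ± 1.48 at 24 months (exact permutation p = 0.00794, the smallest possible, adjusted p = 0.0238). At equal depth the expected numbers were 222.04 ± 5.92 at 42 months and 225 ± 3.91 at 24 months (exact permutation p = 0.317).

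By CPM ranges, 6 hairpins (2.33% of those tested) did not overlap between the ages. MiR-222b and miR-16c were above in all 42-month libraries, and miR-216b, miR-30a and both copies of miR-206 were below. Of these 5 were also called, all but copy 1 of miR-206. MiR-30a had entered the test through libraries of other ages, as given above. Spread among libraries was also compared, as a description. The median SD of a hairpin's log2 CPM was 0.396 at 42 months and 0.329 at 24 months, and the SD was larger at 42 months for 61.2% of hairpins. This share was 54.2% for hairpins with a mean of at least 100 CPM and 52.7% without 42 months replicate 2, the library of lowest depth. At 6, 12 and 36 months the median SD was 0.252, 0.325 and 0.272.

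Of the called hairpins 5 lay in clusters whose tested members were all called. RefSeq's annotation of assembly GRCz12tu, used for neighbourhood only, placed 341 of the 346 hairpins, and 47 clusters (within 10 kb) held at least 2 tested hairpins. In the cluster of miR-217, miR-216a and miR-216b all 3 fell, and in that of miR-462 and miR-731 both rose. MiR-206-2 lies beside miR-133c and miR-206-1 beside miR-133b, and neither miR-133c (-0.58) nor miR-133b (-0.50) passed. MiR-16c lies beside copy 2 of miR-15a, which was not called. Members of a cluster can be cut from 1 transcript and are not independent.

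The other ages show where the 42-month levels stand, although strain labels differ between all ages but 6 and 24 months. The comparison of 36 with 24 months shares the 24-month libraries, and fish of 36 months carried the label AB JxTü Tg(pu.1:GFP). MiR-222b had a mean of 269.6 ± 8.69 CPM at 6 months, 262 ± 54.9 at 12, 189.6 ± 35.9 at 24, 570.4 ± 130.4 at 36 and 456 ± 129.8 at 42 months. It was also called higher at 36 than at 24 months (log2 change 1.59, adjusted p = 8.51e-06). The same comparison called 13 of 258 tested hairpins, 6 higher and 7 lower at 36 months. Among them were miR-731 (0.82, adjusted p = 0.0382), miR-462 (0.82, adjusted p = 0.0497) and miR-206-2 (-1.52, adjusted p = 0.00893).

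Several of the microRNAs that were higher at 42 than at 24 months had been lower at 24 than at 6 months, ages with the same strain label. Calls between 24 and 6 months were common, with 65 of 258 tested hairpins, 42 lower and 23 higher at 24 months. MiR-462 averaged 57866 ± 11248 CPM at 6 months, 30996 ± 10352 at 12, 24514 ± 8320.5 at 24, 43319 ± 7067 at 36 and 43823 ± 13253 at 42 months. At 24 against 6 months it fell by 1.24 on the log2 scale (adjusted p = 0.00124). MiR-731 fell by 1.27 (adjusted p = 7.04e-04), miR-375-1 by 0.71 (adjusted p = 0.0115), miR-16c by 0.56 (adjusted p = 0.00105) and miR-155 by 1.08 (adjusted p = 0.0304). MiR-16c averaged 1616 ± 125 CPM at 6 months, 1428 ± 123 at 12, 1093 ± 89.3 at 24, 1346 ± 188 at 36 and 1489.9 ± 177 at 42 months. Both changes rest on the 24-month libraries, so the low point at 24 months is common to them.

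The oldest ages, 42 and 36 months, carried different strain labels. Between them 10 of 258 tested hairpins were called, 7 higher and 3 lower at 42 months. Of these miR-30a was lower at 42 months (log2 change -2.61, adjusted p = 0.0156) and miR-223 was higher (1.36, adjusted p = 0.0226). MiR-30a had 1 to 4 reads in each 42-month library and entered the test through other ages. The limit given above therefore holds for this call too. MiR-223 averaged 66.6 ± 21.8 CPM at 6 months, 81.9 ± 17.8 at 12, 119.6 ± 23.3 at 24, 104 ± 18.4 at 36 and 265 ± 207 at 42 months. MiR-222b, miR-462, miR-155 and miR-206-2 did not pass between 42 and 36 months (adjusted p = 0.269, 0.971, 0.871 and 0.620). For miR-216a, miR-216b and miR-217 the 42-month mean was the lowest of the 5 ages. MiR-216b averaged 65.0 ± 25.4 CPM at 6 months, 46.3 ± 8.12 at 12, 77.3 ± 83.3 at 24, 38.6 ± 9.003 at 36 and 18.7 ± 5.03 at 42 months.

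**Figure D5:**
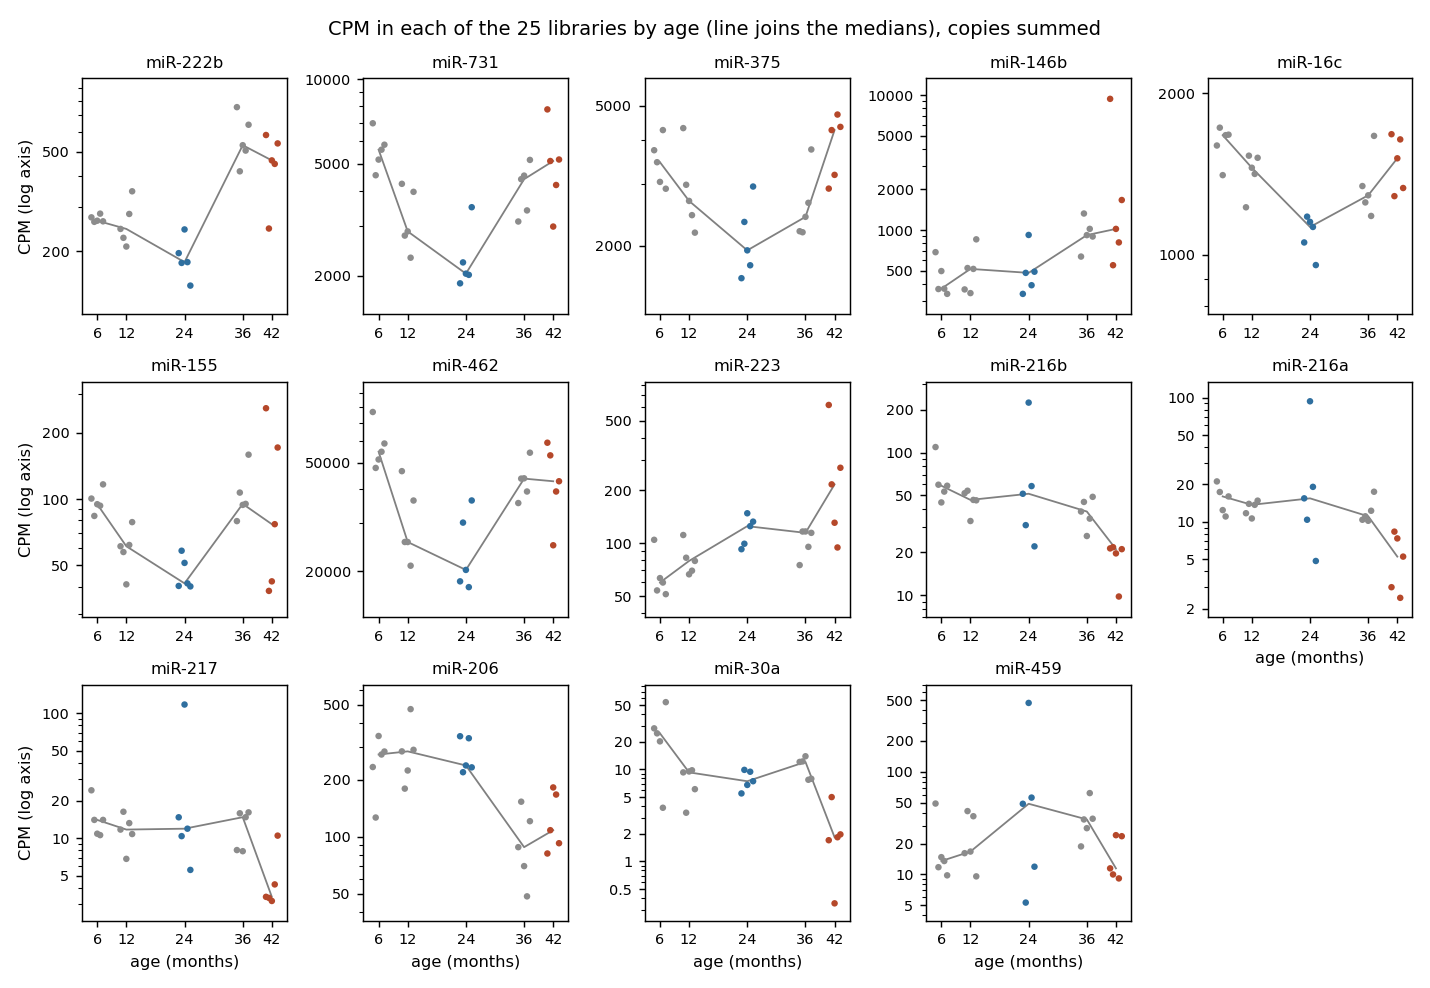
CPM (log axis) of the 14 names called by hairpin, copies summed, in each of the 25 libraries against age in months (x axis); red points are 42 months, blue points 24 months, grey points the other ages, and the line joins the medians. MiR-731, miR-462 and miR-16c have their lowest median at 24 months, and miR-206 lies low at both 36 and 42 months.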

How the data were processed

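Small RNA from 25 skin libraries was sequenced, and the deposited table held raw counts per hairpin, with no normalization. The submitters' processing notes name BWA 0.7.12-r1039, SAMtools 1.3.1-9, Trimmomatic 0.36 and CASAVA 1.8.4. What each did, how hairpins were counted and on which build was not given in the sources used here. Of the 346 hairpins, 50 had no count in the 10 libraries compared. Names such as miR-375-2 carry a copy number after the last dash. In 22 of 28 multi-copy names with a mean summed count of at least 1000 the copies agreed within 1.1 times, so copies (115 of the tested hairpins share a name) may share reads, and summed levels may hold a read more than once. Strand and hairpin arm were not known.

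The deposited counts were tested with edgeR 4.0.16 in R 4.3.3. All 25 libraries entered the fit by age, scaled by TMM, with filterByExpr (minimum count 10). The filter applies this count at the median library total, so a smaller library can pass with fewer reads. Quasi-likelihood F tests were adjusted by Benjamini and Hochberg over the 258 hairpins, or over the 190 names in the fit with copies summed. CPM are counts over the TMM-scaled library total. Alternatives were DESeq2 1.42.0 and its size factors, limma-voom (limma 3.58.1), other scalings and filters, robust estimation, a test against a fold change of 1.5, only the 10 libraries, and libraries left out. Taking out 42 months replicates 1 and 5 and 24 months replicate 3 together was chosen after the data were seen. The scripts were tested on simulated data.

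Replicates were numbered in the order of the records. No label says that libraries come from separate fish, so p-values measure the spread between libraries, which may be technical. No pair of libraries of an age agreed within counting noise. The members and the 33 lists, defined by microRNA number, were chosen with earlier results of these data known. The names in the text are up to 12 called names per direction from the hairpin fit, the 10 most abundant names, 2 of the most abundant and all called members of each list, and genome neighbours of these. MiR-1, miR-99, miR-124, miR-125c, miR-150, miR-203a, miR-489 and miR-1388 fall outside this rule and were chosen after their values were seen.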

Additional observations from a re-analysis of the deposited data

Results flagged for a closer look

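In 24 of 156 groups of 5 values checked, 1 library lay apart from the other 4. For independent, normally distributed values about 7.8 (1 in 20) would do so. These CPM were not log-transformed, many vary together, and the names were partly chosen by their p in these libraries. The 7.8 is therefore not a valid expectation here. Of the 24 groups, 10 held a high value of 24 months replicate 3. This library held 224 CPM of miR-216b, 93.5 of miR-216a, 117 of miR-217, 469.6 of miR-459, 38083 of miR-192 and 1826 of miR-122, all known from digestive organs. It also held 919.8 CPM of miR-146b, 6981 of miR-146a, 426 of miR-29b and 596 of miR-101b.

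Among the 42-month libraries, replicate 1 held 9406 CPM of miR-146b and 149.6 of miR-34a. Replicate 2 held 169036 CPM of miR-205, 7680.25 of miR-182 and 7709 of miR-100. Replicate 5 held 998 CPM of miR-9 and 10.5 of miR-217. Replicate 4 was low in miR-216b, with 9.77 CPM.

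At 24 months, replicate 5 held 3503 CPM of miR-731, above the other 24-month libraries, and was low in miR-126b (1616 CPM), miR-27b (10701 CPM) and miR-101a (4834 CPM). Replicate 2 was low in miR-26a, with 31494 CPM, and in miR-133a, with 3994 CPM.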

How the results depend on the processing

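The count of hairpins called, 15, was 37 with DESeq2, 5 with limma-voom (5 higher, 0 lower), 1 with only the 10 libraries in the fit, 1 against a fold change of 1.5, and 1 without 42 months replicates 1 and 5 and 24 months replicate 3. With 1 library left out it was 9 to 34. It was 9 without 42 months replicate 5 or 24 months replicate 4, 25 without 24 months replicate 2 and 34 without 42 months replicate 4. Of the 15 hairpins, 14 were among those 34. The count of names, 20, was 12 at a mean of at least 100 CPM, 4 with limma-voom, 1 with only the 10 libraries, 4 against a fold change of 1.5, 12 without both 42 months replicates 1 and 2, and 1 without the 3 libraries named above. With 1 library left out it was 7 (without 24 months replicate 4) to 25, with 8 without 42 months replicate 1, 12 without 24 months replicate 1 and 13 without 42 months replicate 5 or 24 months replicate 3. Upper-quartile scaling shifted the median change by -0.20 and library totals by -0.114 log2, and DESeq2's size factors by -0.0171. No result reversed past the threshold.

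The difference in library totals was -1376918.4 counts (-1705358 to -1078238.5 with 1 library left out), or -0.91 log2 (exact permutation p = 0.0635). The difference in hairpins with at least 10 counts was -17.4, with at least 1 count -5.8 and at equal depth -3.41. The share of hairpins with the larger SD at 42 months, 61.2%, was 54.2% at a mean of at least 100 CPM and 52.7% to 70.2% with 1 library left out. Over the 75 named results, 1426 alternative values kept their direction and side of the threshold, 104 lost a call, 41 gained one and the others moved. Only the 14 names called by hairpin could lose a call. The 1426 include results that were not called and stayed so, and are no measure of how stable the calls were. No paired analysis was possible because replicate numbers came from record order and pair no libraries. Depth limits miR-30a, miR-216a and miR-217, each with under 25 reads in every 42-month library.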
